A study of Mus musculus with 176 samples.

Results

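The receptors of the CD28 family that were followed here are 5 genes of CD4 T cells: Cd28 and Icos, which encode costimulatory receptors, and Ctla4, Pdcd1 and Btla, which encode inhibitory ones. They were chosen by name, and each of the 5 was found in the count table, which holds 53546 gene names. Their reads were examined in 176 single CD4 T cells sequenced by Smart-Seq2, a plate-based full-length method, from lymph nodes of young adult female C57BL/6J mice. The mice had been immunized with P6, a peptide of Apolipoprotein B, in Freund's adjuvants. P6+ cells had bound I-Ab tetramers loaded with P6 in both colors and P6- cells had not, and every cell had passed a sort for antigen-experienced TCRβ+ CD4+ CD44hi cells. All P6+ cells came from 1 mouse, dasatinib was present before tetramer staining, and 32 of the 176 deposited cells were P6+.

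T cells need a signal from a costimulatory receptor beside that of the T cell receptor in order to respond fully to antigen. CD28 binds CD80 and CD86 and gives that signal, and CTLA-4, which binds the same ligands more tightly, limits it. ICOS acts mainly in activated and follicular helper cells, PD-1 and BTLA recruit phosphatases that dampen signalling, and CTLA-4 is made at a high level by regulatory T cells (Tregs), whose lineage factor is Foxp3.

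On GRCm38, Cd28 lies at chr1:60716800-60773359, Ctla4 at chr1:60887000-60915832 and Icos at chr1:60977927-61000320, all on the forward strand. These neighbours are separated by 113.6 kb between Cd28 and Ctla4 and by 62.1 kb between Ctla4 and Icos. Pdcd1 lies on the reverse strand of the same chromosome at chr1:94038305-94052553, and Btla on the forward strand of chr16 at chr16:45224315-45257670. The span of Ctla4 overlaps the pseudogene Rpl18-ps1 and that of Icos the predicted gene Gm37039 on the same strand, and such overlaps can cost a gene reads in counting. Promoter sequence (RefSeq, GRCm38.p6) was at hand for 3 of the 5 genes. The 250 bases before the start of the transcripts Ctla4-201 and Pdcd1-201 are shown because these inhibitory receptors were found at such different frequencies in the same cells. Capitals mark the letters GGAAA or their complement TTTCC, the core that NFAT factors, which act downstream of the T cell receptor, are known to bind.
Ctla4 (chr1:60908775-60909024, forward strand): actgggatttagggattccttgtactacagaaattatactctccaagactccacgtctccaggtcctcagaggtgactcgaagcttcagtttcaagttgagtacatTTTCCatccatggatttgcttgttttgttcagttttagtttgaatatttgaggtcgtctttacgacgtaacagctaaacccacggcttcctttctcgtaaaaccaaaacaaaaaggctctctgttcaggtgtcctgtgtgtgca
Pdcd1 (chr1:94052554-94052803, reverse strand): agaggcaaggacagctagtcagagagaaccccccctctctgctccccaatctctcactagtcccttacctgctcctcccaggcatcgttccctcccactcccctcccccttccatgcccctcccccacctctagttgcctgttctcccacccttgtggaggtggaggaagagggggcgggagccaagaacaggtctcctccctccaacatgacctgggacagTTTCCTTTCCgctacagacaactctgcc
The window of Ctla4 held 1 match and that of Pdcd1 held 2, which lie next to each other, whereas the same window of Btla held 0. Since 55.6% of 32851 promoter windows of this length hold the core on either strand, a match is a description of the letters only.

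After cells with fewer than 500000 reads, fewer than 2000 genes or more than 10% mitochondrial reads were left out, 161 cells remained, which were all 32 P6+ cells and all but 15 of the P6- cells. P6+ cells held 956280 to 3332191 reads (median 1731608) and P6- cells 522188 to 3401372 (median 1500457). A median of 4396 genes was detected in a P6+ cell and of 3432 in a P6- cell, and thinning each cell to 500000 reads left 2742 and 2234. CD4 T cell markers reached 10 reads in all 32 P6+ cells and all but 3 P6- cells. Their own detection differed too, since Cd3d, a chain of the CD3 complex, reached 10 reads in 87.5% of P6+ and 56.6% of P6- cells. Of 8 B cell markers, Cd79b reached 10 reads in 2 P6+ cells and Cr2 in 1 P6- cell, with summed levels of up to 580.2 and 326.5 counts per 1000000 reads (cpm). The defining markers Ms4a1, Cd79a and Pax5 reached 10 reads in 0 cells, as did all 7 myeloid markers. The CD8 chain Cd8b1 was found in 2 P6- cells. All 32 P6+ cells shared the prefix of their cell name with only 11 of the P6- cells, and values against these 11 are therefore given as well for the receptors and lists. Each tetramer group is 1 sample, because its cells are not replicates. There is thus no test between groups, and intervals (exact Poisson for reads, exact binomial for shares, both 95%) cover counting error only.

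Receptor reads were all or nothing in most cells. For Cd28, 22 P6+ cells held at least 100 reads and the other 10 held 2 to 9, with 0 cells in between. Among P6- cells, 62 held at least 100 Cd28 reads, 5 held 10 to 99, 60 held 1 to 9 and 2 held none. Icos fell apart in the same way, with 25 P6+ cells at 100 reads or more, 1 cell at 10 to 99 and 6 at 1 to 9. Ctla4 was more graded, as 22, 3, 6 and 1 P6+ cells held at least 100, 10 to 99, 1 to 9 and 0 reads. A cell was accordingly counted as holding a gene from 10 reads on. By this limit Cd4 was held by 50% of P6+ and 30.2% of P6- cells, and Cd44 by 34.4% and 23.3%. All of them had been sorted as CD4+ CD44hi, so a cell under 10 reads cannot be taken as negative for a gene. At a limit of 1 read instead, all 32 P6+ cells would hold Cd28 and Icos.

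**Figure D1:**
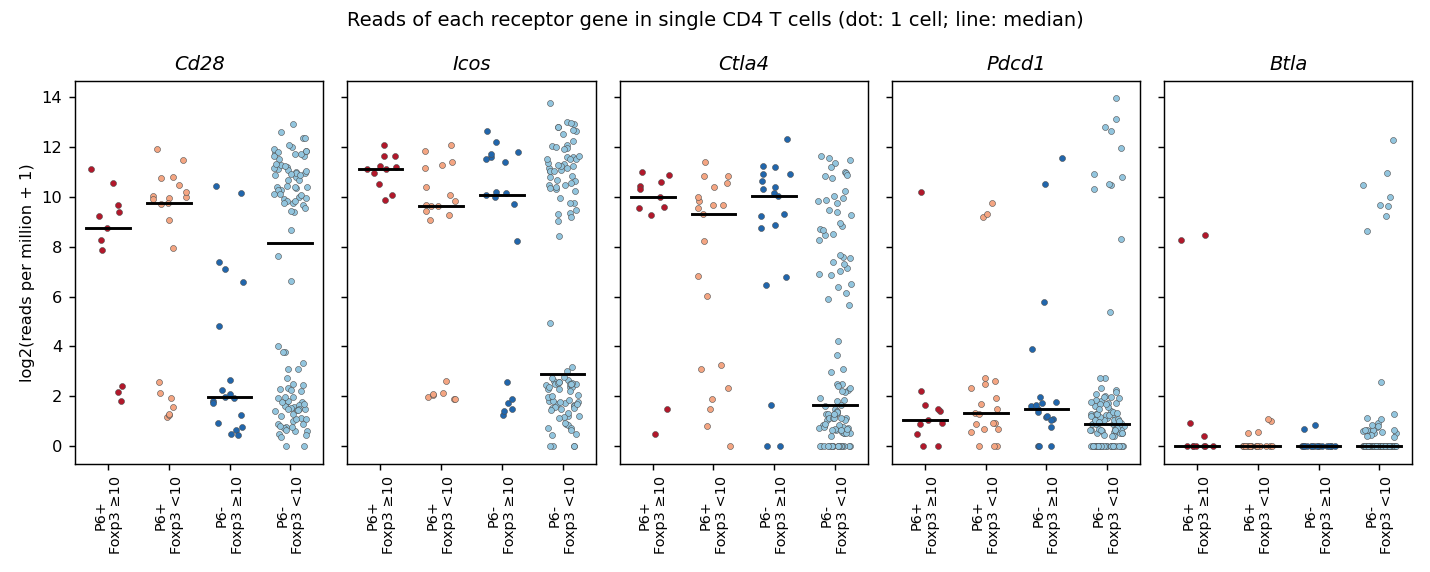
Level of each receptor gene in single cells (y axis, log2 of cpm + 1), in P6+ and P6- cells split at 10 Foxp3 reads (x axis; 11, 21, 19 and 110 cells). Dots are cells and lines are medians. Most cells sit either near the floor or above about 100 cpm, and Pdcd1 and Btla are high in a few cells only.

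Cd28, the founding costimulatory receptor, was held by 22 of 32 P6+ cells (68.75%, interval 49.99 to 83.9%) and 67 of the P6- cells (51.9%, 42.97 to 60.8%). Levels ran from 1.27 to 3820 cpm in P6+ cells (median 625.5) and from 0 to 7617 cpm in P6- cells (median 12.8). The ranges overlapped, and the highest cells were P6-. Pooled over cells, Cd28 was at 871 cpm in P6+ and 1011 cpm in P6- cells, a log2 ratio of -0.21 with a pseudocount of 1 cpm. Thus a larger share of P6+ cells held Cd28, with overlapping intervals, but among the cells that held it the median was lower in P6+ (978 cpm) than in P6- cells (1384 cpm).

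Icos, which is induced after activation, was held by 26 of 32 P6+ cells (81.25%, 63.6 to 92.8%) and 70 P6- cells (54.3%, 45.3 to 63.1%). The intervals did not overlap, but after thinning to 500000 reads they met (60.03 to 90.7% and 42.2 to 60.06%). P6+ cells ranged from 2.68 to 4307 cpm (median 1073), and P6- cells from 0 to 13871 cpm (median 302). The pooled levels were nonetheless nearly equal, at 1453 cpm in P6+ and 1390 cpm in P6- cells (log2 ratio 0.06), because the P6- cells that held Icos had more of it (median 2187 against 1710 cpm).

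Ctla4 showed the same order of shares and was also higher in its positive cells. It was held by 25 of 32 P6+ cells (78.1%, 60.03 to 90.7%) and 59 P6- cells (45.7%, 36.9 to 54.7%). P6+ cells ranged from 0 to 2700 cpm (median 767) and P6- cells from 0 to 5026 cpm (median 3.76). Here the positive cells had a median of 903 cpm in P6+ and 608 cpm in P6- cells, and the pooled levels were 779 and 498 cpm (log2 ratio 0.64). After thinning to 500000 reads, 71.9% of P6+ and 43.4% of P6- cells held Ctla4, and 78.1% and 51.2% held Icos. The median gene tested was held by 12.5% of P6+ and 7.75% of P6- cells, so more genes of many kinds were detected in P6+ cells, and the part of this in the receptor shares was not tested.

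Pdcd1, which encodes PD-1, and Btla were rare in either group. Pdcd1 was held by 4 of 32 P6+ cells (12.5%) and 16 P6- cells (12.4%), and Btla by 2 P6+ cells (6.25%) and 8 P6- cells (6.20%). The shares nearly coincided, with intervals of 3.51 to 28.99% and 7.26 to 19.4% for Pdcd1. The positive P6- cells reached higher levels, in overlapping ranges for Pdcd1. The 4 P6+ cells held Pdcd1 at 577 to 1163 cpm, whereas the 16 P6- cells reached 15695 cpm with a median of 1620 cpm. The 2 P6+ cells held Btla at 304 and 352 cpm, whereas the 8 P6- cells ranged from 389 to 4997 cpm. Pooled, Pdcd1 was at 111.5 cpm in P6+ and 335.9 cpm in P6- cells (log2 ratio -1.58), and Btla at 11.96 and 76.5 cpm (log2 ratio -2.58).

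**Figure D2:**
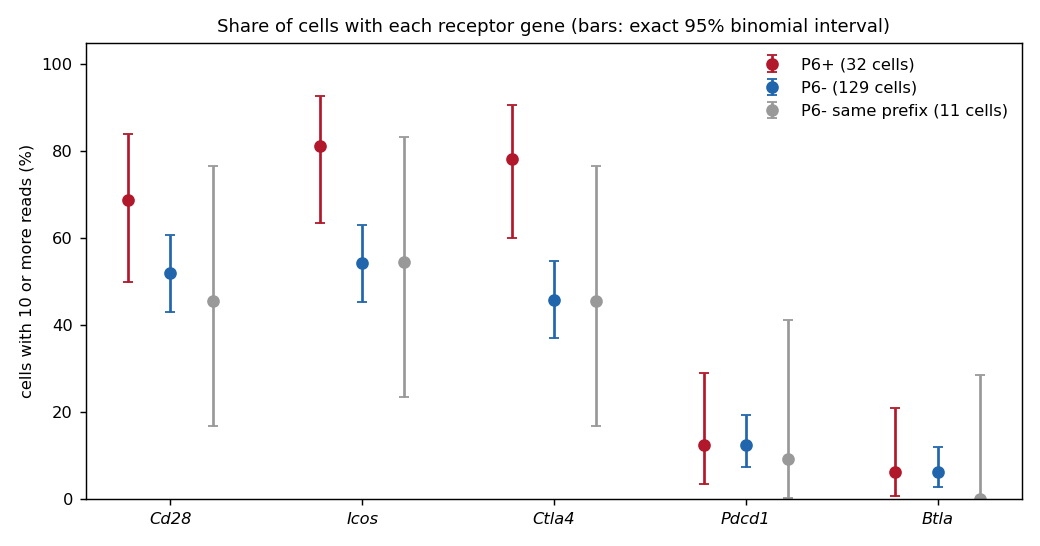
Share of cells with 10 or more reads of each receptor gene (y axis, percent) in the 32 P6+ cells, all P6- cells and the 11 P6- cells with the name prefix of the P6+ cells. Bars are exact 95% binomial intervals. For Icos and Ctla4 the P6+ and P6- intervals are apart, while the interval of the 11 cells overlaps both.

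Of the 5 receptors, 0 were more than 2-fold higher and 2 more than 2-fold lower in P6+ than in P6- cells, where 23.8% and 26.2% of 7807 genes with a mean of at least 10 cpm passed these limits. The median receptor log2 ratio was -0.22, against 0.01 over all genes tested. Against the 11 P6- cells of the same name prefix, Ctla4 was higher (779 against 282 cpm, log2 ratio 1.46) and Pdcd1 lower (log2 ratio -1.32), 1 in each direction of the 4 receptors that passed the filter. There 46.7% of 6958 genes were past 2-fold higher and 25.2% past 2-fold lower. The single cell with Pdcd1 among these 11 gave 99.6% of its reads. Icos was at 850 cpm in the 11 cells (log2 ratio 0.77), close to the median of 0.70 over all genes in that comparison. Btla turned around, since the 11 cells held 1 read of it against 710 reads in P6+ cells (ratio 185, counting interval 33.1 to 7308). Nearly all of the 710 reads came from 2 P6+ cells, and 0 of the 11 cells held Btla (interval 0 to 28.5%). The shares in these 11 cells were 5 for Cd28 (45.5%), 6 for Icos (54.5%) and 5 for Ctla4 (45.5%), with intervals that reached into those of the P6+ cells.

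**Figure D3:**
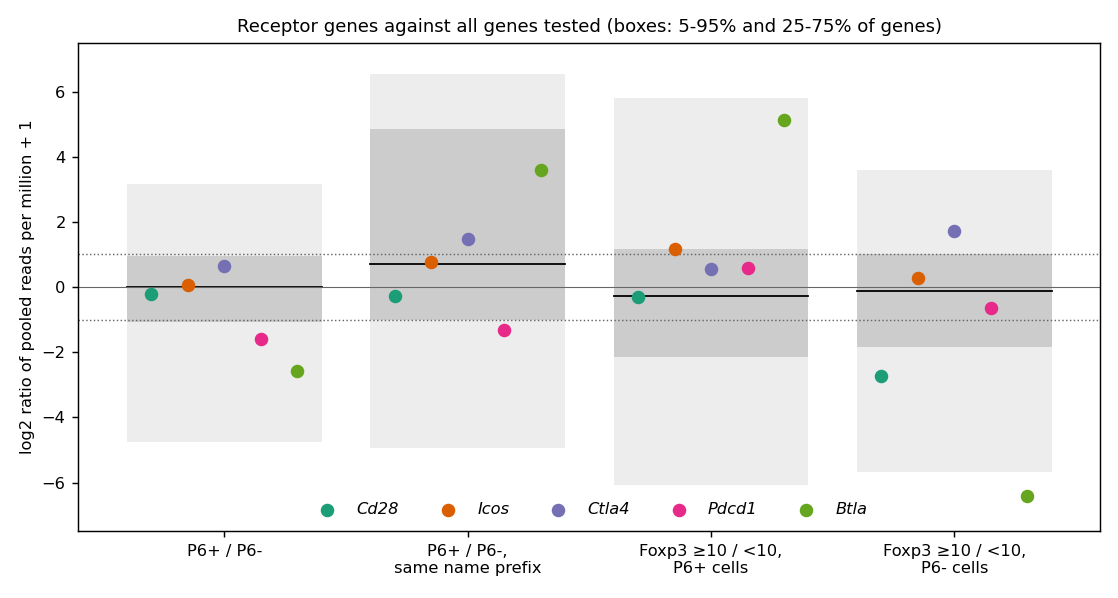
Log2 ratios of pooled cpm + 1 (y axis) for the 5 receptor genes (dots) in 4 comparisons (x axis), over boxes that span the 5-95% and 25-75% ranges of all genes tested, with their median as a line. Dotted lines mark 2-fold. Only Btla in the Foxp3 split of P6- cells lies outside the 5-95% range of its comparison.

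The split by Foxp3 reads compared the receptors between cells with 10 or more reads of Foxp3, called with Foxp3, and the others, called without. Cells with 10 or more reads of Foxp3 numbered 11 of 32 P6+ cells, the lowest at 22 reads, and 19 P6- cells (14.7%), the lowest at 37. The other cells held at most 4 and 2 reads. In P6- cells, all 8 genes of a Treg list other than Foxp3 were more than 2-fold higher on the Foxp3 side, against 25.2% of all genes. In P6+ cells 1 of the 8 genes, Capg, was higher and 1, Lrrc32, lower, against 26.7% and 37% of all genes. By cells Lrrc32 went the other way, held by 4 of 11 with Foxp3 and 6 of 21 without. The other 6 genes stayed within 2-fold in P6+ cells. Among these, Ikzf2, which encodes Helios, was held by 21 P6+ cells (65.6%) but 24 P6- cells (18.6%). The 21 P6+ cells without Foxp3 held the 8 genes too, from 5 cells with Il2ra to 21 with Tnfrsf4. The split of P6+ cells thus does not cleanly part Treg-like from other cells.

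Icos was held by all 11 P6+ cells with Foxp3, at 930 to 4247 cpm (median 2206). Of the 21 other P6+ cells, 15 held Icos, and values ran from 2.68 to 4307 cpm (median 782). The groups overlapped, but 0 of the 11 cells lay in the low range. Pooled levels were 2367 and 1049 cpm (log2 ratio 1.17), which fell below 2-fold when the split was set at 1 Foxp3 read (0.51). In P6- cells the split gave 1634 and 1349 cpm (log2 ratio 0.28), and Icos was held by 13 of 19 cells with Foxp3 and 57 of 110 without. This direction turned without the P6- cells of prefix 9 (-0.26) and among those of the P6+ name prefix (-2.26), of which only 3 had Foxp3.

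Ctla4 was more frequent and higher with Foxp3 in P6- cells. It was held by 16 of 19 P6- cells with Foxp3 (84.2%), at 0 to 5026 cpm with a median of 1052. Only 43 of 110 P6- cells without Foxp3 held it (39.1%), at 0 to 3160 cpm with a median of 2.13. Pooled levels were 1236 and 373 cpm (log2 ratio 1.72). This ratio was 0.90, below 2-fold, with the split at 1 Foxp3 read. It was 4.84 among the P6- cells of the P6+ name prefix, of which only 3 had Foxp3. Among P6+ cells, Ctla4 was common on both sides, in 9 of 11 cells with Foxp3 and 16 of 21 without, at 1007 and 679 cpm (log2 ratio 0.57). The share in P6+ cells without Foxp3 was 76.2% (interval 52.8 to 91.8%), beside 39.1% in P6- cells without Foxp3 (29.9 to 48.9%).

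Cd28 went the other way in P6- cells. It was held by 6 of 19 P6- cells with Foxp3, at 0.37 to 1374 cpm (median 2.88), and by 61 of 110 without, at 0 to 7617 cpm (median 302). Pooled levels were 172 and 1153 cpm (log2 ratio -2.74). This ratio was -0.92 with the split at 1 Foxp3 read and -3.55 without the P6- cells of prefix 7. In P6+ cells, 8 of 11 with Foxp3 and 14 of 21 without held Cd28, at 746.5 and 926 cpm (log2 ratio -0.31). A single cell gave 51.8% of the Cd28 reads of the 11 cells. The 2 P6+ cells with Cd79b were among these 11, and without cells that held a B cell marker the Cd28 log2 ratio in P6+ cells was -1.18.

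Btla lay on opposite sides of the Foxp3 split in P6+ and P6- cells. Both P6+ cells that held it had Foxp3, with 411 and 291 reads, against 6 reads over the 21 other P6+ cells (38.7 and 0.146 cpm, log2 ratio 5.12). The size of this ratio depends on the pseudocount, from 2.26 with 10 cpm to 7.30 with 0.1 cpm. All 8 P6- cells that held Btla had under 10 Foxp3 reads. The 19 P6- cells with Foxp3 held 2 reads of Btla against 15587 in the 110 others. There Btla was 1319-fold higher without Foxp3, with a counting interval of 365 to 10895 that covers reads and not the few cells they came from. By cells, 0 of 19 (0 to 17.65%) and 8 of 110 (3.19 to 13.8%) held Btla, with overlapping intervals. With the split at 1 Foxp3 read the log2 ratio in P6- cells was -0.94, below 2-fold. A share of 0 of 19 cells and 2 of 11 cells rests on few cells, and none of the 10 Btla-bearing cells held a B cell marker with 10 reads. The 11 P6- cells of the same name prefix held 1 read of Btla in all, so this split could not be read among them.

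Pdcd1 rested on single cells in this split. In P6+ cells 1 of 11 with Foxp3 and 3 of 21 without held it (146 and 96.2 cpm, log2 ratio 0.60), and 1 cell gave 99.4% of the reads on the Foxp3 side. Without the highest cell of each side the log2 ratio was -4.63, so its direction rests on that cell. In P6- cells 4 of 19 and 12 of 110 cells held Pdcd1 (228 and 354 cpm, log2 ratio -0.63). Leaving out the P6- cells of 1 name prefix at a time moved this ratio between -1.85 and 0.30, so its direction turned.

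Past 2-fold, 2 receptors were higher and 0 lower with Foxp3 in P6+ cells, where 26.7% and 37% of 7037 genes were. In P6- cells 1 was higher and 2 were lower, where 25.2% and 33.3% of 7418 genes were. The receptors' medians were 0.60 and -0.63, against -0.27 and -0.13 over all genes. That the splits differed between P6+ and P6- cells was not tested.

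Icos and Ctla4 were held together by 23 P6+ cells, where the product of their shares gives 20.3, and 4 cells held neither. Cd28 was held with Icos by 18 cells and with Ctla4 by 16, near the 17.9 and 17.2 that the shares give. Across the 32 cells the Spearman correlation was 0.46 for Icos with Ctla4 and -0.32 for Cd28 with Ctla4. In P6- cells the values were 0.19 and -0.11. All correlations here are descriptions over cells of 1 sample, and library depth enters each of them. Cd28, Icos and Ctla4 were held together by 16 of 32 P6+ cells (50%, 31.9 to 68.1%) and 24 P6- cells (18.6%, 12.3 to 26.4%), and by 2 of the 11 P6- cells of the same name prefix. None of the 3 was held by 22 P6- cells and 0 P6+ cells. The 4 P6+ cells with Cd28 alone of these 3 all had under 10 Foxp3 reads. No cell held all 5 receptors, and 5 P6+ and 9 P6- cells held 4.

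**Figure D4:**
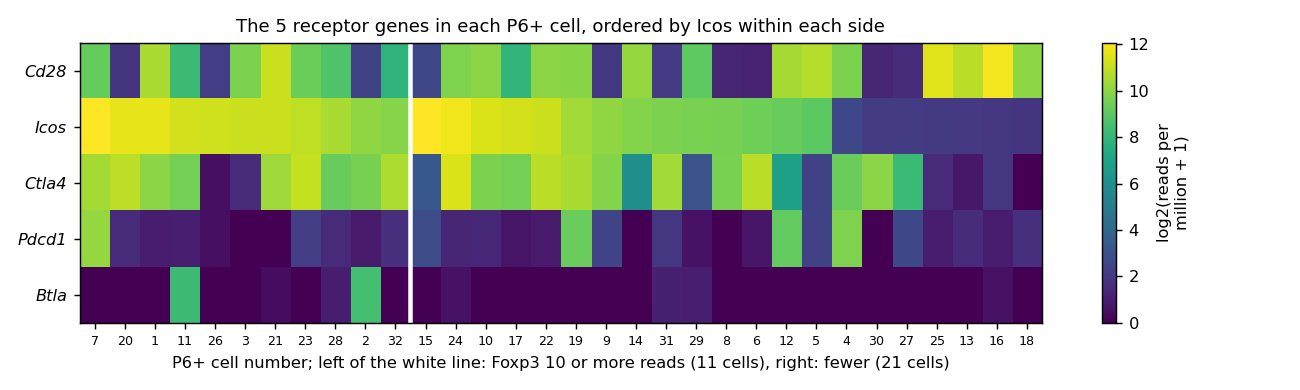
The 5 receptor genes (rows) in each of 32 P6+ cells (columns), colored by log2 of cpm + 1 and ordered by Icos within cells with 10 or more Foxp3 reads (left, 11 cells) and fewer (right, 21 cells). Icos is high in all 11 cells on the left, and 4 of the 6 cells with under 10 Icos reads have high Cd28 and low Ctla4.

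The few cells with Pdcd1 also held other receptors. All 4 such P6+ cells held Cd28, Icos and Ctla4, and of 16 such P6- cells 15 held Icos, 10 Ctla4 and 8 Cd28. Of the 8 P6- cells with Btla, 3 held Pdcd1, whereas 0 of the 2 such P6+ cells did.

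Per kilobase of exon, Icos was the highest receptor in P6+ cells, at 424 cpm per kb. It was followed by Ctla4 at 334, Cd28 at 142.3, Pdcd1 at 57.8 and Btla at 3.52 cpm per kb. P6- cells gave 405 for Icos, 214 for Ctla4, 174 for Pdcd1, 165 for Cd28 and 22.5 for Btla. Neighbours in these orders cannot be told apart beyond cells of 1 sample, since the cells' own ranges overlapped for each pair, Icos and Ctla4 included.

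Among P6- cells the shares also varied by prefix of the cell name. Over 8 prefixes of 11 to 24 cells, the share ranged from 33.3 to 70% for Cd28, from 16.7 to 83.3% for Icos and from 30 to 66.7% for Ctla4. Pdcd1 ranged from 0 to 28.6% and Btla from 0 to 16.7%, and 5 of 8 prefixes had a cell with Btla. The share of Icos in P6+ cells (81.25%) and that of Ctla4 (78.1%) lay within and above these ranges, respectively.

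**Figure D5:**
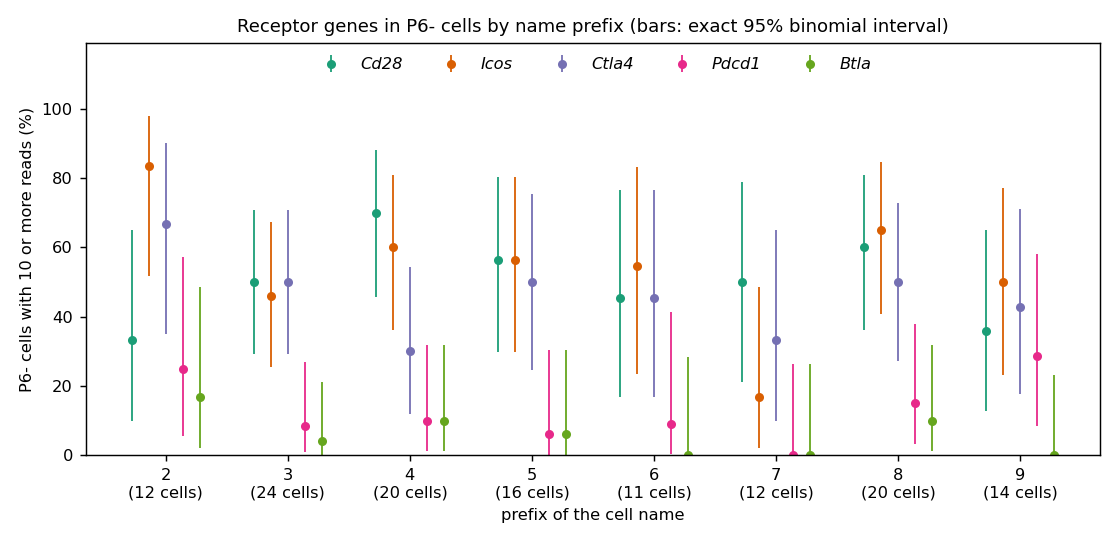
Share of P6- cells with 10 or more reads of each receptor gene (y axis, percent) by prefix of the cell name (x axis, 11 to 24 cells each). Bars are exact 95% binomial intervals, which overlap widely for most prefixes. Icos runs from 16.7% (prefix 7) to 83.3% (prefix 2).

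The pathway around the receptors was described by lists of ligands, signalling proteins and regulators. Of 13 kinases, adaptors and other signalling proteins used by CD28 and ICOS, 0 were more than 2-fold higher and 6 lower in P6+ than in P6- cells, with a median log2 ratio of -0.91. Over all genes tested, 23.8% were higher and 26.2% lower, and the counts of the lists below are to be read against these shares. Grap2, the adaptor GADS, was at 56.8 cpm in P6+ and 269 cpm in P6- cells (327 cpm in the 11 cells of the same name prefix). Against the 11 P6- cells of the same name prefix, 4 of 12 were higher and 5 lower, where 46.7% and 25.2% of all genes were. Of 10 phosphatases, adaptors and ubiquitin ligases that dampen signalling, 1 was higher and 1 lower, and 4 and 3 against the 11 cells. Of 9 transcription factors known to act on the receptor genes, 2 were higher and 2 lower, the former being Batf (383 and 162 cpm) and Maf (112.2 and 41.4 cpm). Against the 11 cells 7 of these factors were tested, 2 higher and 1 lower, with log2 ratios of 1.66 for Batf and 2.69 for Maf. Batf was held by 14 P6+ cells (43.75%) and 17 P6- cells (13.2%). Among 4 genes of CTLA-4 trafficking, Ap1m1, a clathrin adaptor subunit, was at 255 cpm in P6+ and 57.1 cpm in P6- cells (0.518 cpm in the 11 cells), and 1 gene was lower (2 against the 11 cells). Of 3 RNA-binding proteins that act on Icos mRNA, 0 passed 2-fold, and 1 was higher against the 11 cells. Of 6 ligands 4 were tested, and 2 were higher, or 4 against the 11 cells. Of 9 Treg genes, 4 were higher and 0 lower (median log2 ratio 0.86), and 6 and 1 against the 11 cells.

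Cblb and Nfatc1 were lower with Foxp3 in both tetramer groups, while Grap2 went opposite ways. Cblb, a ubiquitin ligase that sets the need for CD28, was at 135.8 cpm with Foxp3 and 690.5 cpm without in P6+ and at 186 and 508 cpm in P6- cells. Nfatc1, an NFAT factor, was at 118.3 and 609 cpm in P6+ and at 176 and 519 cpm in P6- cells. Grap2 differed, being higher with Foxp3 in P6+ (142.9 and 18.8 cpm) and lower in P6- cells (133.5 and 291.5 cpm). Batf was at 853 cpm with Foxp3 and 175 cpm without in P6+ cells, and at 224 and 151 cpm in P6- cells. Bcl6, the lineage factor of follicular helper cells, was held by 0 of 11 P6+ cells with Foxp3 and 6 of 21 without, and by 1 of 19 and 11 of 110 P6- cells. Maf, of the same follicular helper list, went the other way, held by 8 and 12 P6+ cells and by 8 and 20 P6- cells. Of 6 list genes tested, 0 were past 2-fold higher and 3 lower in P6+ cells (26.7% and 37% of all genes). In P6- cells 1 was higher and 3 were lower (25.2% and 33.3%).

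The genes whose cpm followed each receptor most closely were sought among 1775 genes over 161 cells. Cblb (Spearman 0.34), Dgka, a diacylglycerol kinase that dampens T cell receptor signalling (0.29), and Fyb, an adaptor (0.26), were nearest to Cd28. Ctsb (0.40), S100a6 (0.39) and Rac2 (0.33) were nearest to Icos. Tnfrsf4 (0.40), Tap2 (0.38) and Ikzf2 (0.35) were nearest to Ctla4, but within P6+ cells alone the value for Tnfrsf4 was -0.02. Stx11 (0.39), Faim (0.35) and Tigit (0.34), an inhibitory receptor of another family, were nearest to Pdcd1, but within P6+ cells alone the value for Stx11 was 0.05. Tigit was held by 14 of 20 cells with Pdcd1 and 71 of all 161 cells. For Btla the highest values were 0.26, for Ctnnbl1, Arpc1a and the pseudogene Ap2m1-ps, whose reads may belong to Ap2m1.

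P6+ cells were also split by Trbv13-2, the T cell receptor segment that 16 of the 32 cells held with 10 or more reads. Cells that share a segment may descend from 1 clone and are then not independent. Icos was held by 16 of 16 cells with Trbv13-2 (782 to 4307 cpm, median 2202) and 10 of 16 without (2.68 to 3133 cpm, median 574). Pooled levels of Icos were 2155 and 726 cpm (log2 ratio 1.57). Cd28 was lower, at 503 and 1252 cpm (log2 ratio -1.31), and was held by 9 and 13 cells. Ctla4 was at 938 and 615 cpm (log2 ratio 0.61) and Pdcd1 at 88.6 and 135.3 cpm (log2 ratio -0.61). Both cells with Btla held Trbv13-2, and the 16 cells without had 3 reads of Btla in all. Thus 2 receptors were past 2-fold higher and 1 lower, where 32.5% and 33.3% of 6993 genes were. Foxp3 reached 10 reads in 9 of 16 cells with Trbv13-2 and 2 of 16 without, so the splits share many but not all cells, and the part of one in the other was not tested.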

How the data were processed

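The deposited counts are raw reads per gene that the authors obtained with STAR (2.6.0a per the submitters' processing notes) on GRCm38 with Ensembl annotation, before normalization or imputation. Gene identifiers had been replaced by names, so rows of the same name (81 names) were averaged here. Cells had to have at least 500000 reads and 2000 genes, with at most 10% of reads mitochondrial. The study also filtered on mapping rate, which was not used here, and kept fewer P6- cells. Doublets were not called, since cells were index sorted into single wells. Reads of a group's cells were added up per gene and scaled to 1000000 (cpm), because cells are not replicates and each group is 1 sample. Log2 ratios used a pseudocount of 1 cpm, for genes with a mean of at least 10 cpm in the groups compared, and understate differences of low genes. Detection means 10 reads. Exact intervals at 95% came from SciPy 1.17.1, and reads carry no molecular identifiers. edgeR 4.0.16 (TMM) and DESeq2 1.42.0 size factors served as alternatives on the summed counts. On simulated counts over 53546 genes, all genes changed 2-fold between P6+ and P6- cells were given the right direction. These counts held Poisson error only, without the all-or-nothing variation between real cells. They therefore check the calculation and cannot show how reliable the direction of a real ratio is. Genes named beyond the 5 receptors were list genes past 2-fold that 20% of the cells of the higher group held, and the 3 genes with the highest Spearman correlation to each receptor. Further genes were named as markers. Some list genes are not reported here. The receptors and lists were chosen with earlier results of these data known.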

Additional observations from a re-analysis of the deposited data

Results flagged for a closer look

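The Foxp3 split of Pdcd1 and Btla had opposite signs in P6+ and P6- cells. For Pdcd1 the log2 ratio of cells with 10 or more Foxp3 reads to the other cells was 0.60 in P6+ and -0.63 in P6- cells. For Btla it was 5.12 in P6+ and -6.40 in P6- cells. The difference between the tetramer groups was not tested, as each is 1 sample. The Btla values rest on 2 P6+ and 8 P6- cells, and the Pdcd1 value in P6+ cells on 4. Among P6- cells of the P6+ name prefix only 1 read of Btla was found, so the opposite sign of Btla could not be examined there, and its ratio in P6- cells was -0.94 with the split at 1 Foxp3 read. The signs of Pdcd1 were not stable. Its log2 ratio in P6+ cells was -0.01 after thinning to 500000 reads and -4.63 without the highest cell of each side. In P6- cells it ran from -1.85 to 0.30 when the cells of 1 name prefix were left out, and was 8.13 among the cells that share the name prefix of the P6+ cells. Only 3 of those 11 cells had Foxp3, and 1 cell gave 99.6% of their Pdcd1 reads.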

How the results depend on the processing

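The count of 2 receptors past 2-fold between P6+ and P6- cells ran from 2 to 3 over 20 alternatives, counting Btla also where it was under the filter. The median receptor log2 ratio of -0.22 was 0.77 against P6- cells of the same name prefix (0.25 over the 4 receptors that passed the filter there), -0.14 with all cells, -0.28 with means of cell cpm, -0.25 with TMM factors, -0.30 after thinning and -0.27 without the highest cell of each group. Leaving out the P6- cells of each name prefix in turn gave -0.31 to -0.12. Without cells that held a B cell marker, an alternative added after the data were seen, it was -0.34. Btla reversed against P6- cells of the same prefix, with a log2 ratio of 3.61. Splitting at 1 Foxp3 read left 1 receptor past 2-fold in P6+ cells (2 at 10 reads) and 1 in P6- cells (3 at 10 reads), and leaving out B cell marker cells gave 4 in P6+ cells. In P6- cells, leaving out 1 prefix at a time gave 3 to 4. At a limit of 1 read the shares for Cd28, Icos, Ctla4, Pdcd1 and Btla were 100%, 100%, 96.9%, 84.4% and 25% in P6+ cells and 98.4%, 96.9%, 85.3%, 74.4% and 23.3% in P6- cells. A limit of 100 reads, thinning or all cells kept each share within its interval. The cause of these shifts was not tested. Of genes with 1 read or more, 26.4% were past 2-fold. No paired analysis was possible because the groups share no replicates and no test was made. Groups of 11 cells leave wide intervals for the shares.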

Other observations

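Follicular helper and Treg genes were also compared between P6+ cells with and without Trbv13-2, where 32.5% of all genes were past 2-fold higher and 33.3% lower. Of 8 follicular helper genes 6 were tested, and 0 were past 2-fold higher and 5 lower in cells with Trbv13-2, with a median log2 ratio of -2.44 against -0.04 over all genes, while the log2 ratio of Maf was 0.38. Bcl6 was held by 0 of 16 cells with Trbv13-2 and 6 of 16 without. Sh2d1a, which encodes the adaptor SAP, was held by 2 and 7 cells. The ratios of the other lower genes rest on few cells, since Slamf6 was held by 3 and 4, Cxcr5 by 1 and 2 and Tox2 by 2 and 2. Of 9 Treg genes, 4 were past 2-fold higher, with a median of 0.93, and that of Lrrc32 was -0.31. Il2ra, the high-affinity chain of the IL-2 receptor, was held by 10 and 2 cells, and Capg, an actin-capping protein, by 15 and 5. Tnfrsf18, which encodes GITR, was held by 16 and 9 cells.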
